A study of Mus musculus with 163 samples.

Results

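Among single hair cells picked from control mice at postnatal day 7, 16 of 81 carried transcripts that normally belong to the supporting cells around them. A cell was counted as a carrier when its levels of Gjb2, Gjb6, Fabp7, Tectb and Otog summed to 50 CPM (counts per 1000000 counts of the cell) or more, and it was set against the other cells of the same type. By this rule 9 of 38 inner hair cells (IHCs) were carriers (23.7%, exact 95% interval 11.4 to 40.2%), and so were 7 of 43 outer hair cells (OHCs; 16.3%, 6.81 to 30.7%). The 5 genes chose the cells, so every difference between carriers and other cells is a description of these cells and none was tested.

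The study compared hair cells with and without the RNA-binding protein Rbm24 in 163 single-cell libraries of full-length cDNA. Control cells came from Atoh1P2A-Tdtomato/+ mice with Atoh1 itself intact. Mutant cells came from Atoh1P2A-Cre/P2A-Tdtomato; Rbm24flox/flox mice, where Cre from the Atoh1 locus deletes Rbm24, and all cells in both genotypes were picked by hand for Tdtomato at day 7. The labels name no animal, so each genotype and cell type counts as 1 sample and cells are not replicates. Intervals of ratios cover counting error only, and intervals of shares treat cells as independent draws. Neither kind covers the spread between animals. In control cells Rbm24 was at 202 to 921 CPM in IHCs and 78.8 to 917 CPM in OHCs, and in mutant cells at 0 to 15.6 and 0 to 2.43 CPM. The basis for naming a cell inner or outer is not given in the sources used here.

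Supporting cells hold up the hair cells of the organ of Corti and separate them from each other. Inner phalangeal and border cells surround the IHC, pillar cells line the tunnel between the IHC and OHC rows, Deiters cells stand beneath the OHCs, and the cells of the greater epithelial ridge lie medial to the IHC. They are joined by gap junctions of connexin 26 (Gjb2) and connexin 30 (Gjb6), and they secrete the tectorins and otogelins (Tecta, Tectb, Otog, Otogl) that build the tectorial membrane. Fabp7 encodes a brain-type fatty acid binding protein of glia and of supporting cells near the IHC.

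On GRCm38 the rule genes span chr14:57098600-57104702 (Gjb2) and chr14:57123303-57133611 (Gjb6) on the minus strand, and chr10:57784881-57788450 (Fabp7), chr19:55180733-55196313 (Tectb) and chr7:46240987-46311434 (Otog) on the plus strand. Promoters of 3 of them are shown because Tectb was high in both kinds of carrier, Otog mainly in OHC carriers and Fabp7 in IHC carriers. Each line gives the 250 bases before the RefSeq transcription start (GRCm38.p6, plus strand), with matches in capitals to 2 letter strings of the SOX family, ACAAAG and ACAATG, searched on both strands.
Tectb, chr19:55180476-55180725: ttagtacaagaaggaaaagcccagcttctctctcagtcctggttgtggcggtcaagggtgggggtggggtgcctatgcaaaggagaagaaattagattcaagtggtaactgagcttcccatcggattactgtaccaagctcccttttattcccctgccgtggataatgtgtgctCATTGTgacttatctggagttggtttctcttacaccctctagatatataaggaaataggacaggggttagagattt
Otog, chr7:46240737-46240986: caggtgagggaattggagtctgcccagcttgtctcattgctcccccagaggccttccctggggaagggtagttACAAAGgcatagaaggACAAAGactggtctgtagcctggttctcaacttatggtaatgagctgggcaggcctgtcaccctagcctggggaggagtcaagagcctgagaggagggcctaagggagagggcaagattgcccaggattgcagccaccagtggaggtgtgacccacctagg
Fabp7, chr10:57784673-57784922: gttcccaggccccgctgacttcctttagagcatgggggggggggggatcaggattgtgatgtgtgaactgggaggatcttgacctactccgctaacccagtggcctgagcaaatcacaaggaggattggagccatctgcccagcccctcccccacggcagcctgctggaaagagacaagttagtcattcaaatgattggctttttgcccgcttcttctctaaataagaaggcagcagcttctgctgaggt
Tectb held 1 match, Otog 2 and Fabp7 none. Of 14 genes looked up among the rule genes and the genes that came along, 12 had an entry, and 4 had a match at any start. Of all 32851 promoters of this length, 25.2% held a match, so a match is common and is a description of the letters only.

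The sum of the rule genes left a wide gap at the cutoff. In IHCs the lowest carrier stood at 72.6 CPM and the highest other cell at 1.16 CPM. In OHCs the lowest carrier stood at 97.8 CPM and the highest other cell at 6.70 CPM. Among IHC carriers the sum was 2188 CPM in cell 27, 1613 in cell 28, 1124 in cell 13, 938 in cell 6, 464 in cell 37, 176 in cell 38, 143 in cell 36, 78.6 in cell 22 and 72.6 in cell 9. Among OHC carriers it was 1606 CPM in cell 17, 768 in cell 3, 507 in cell 33, 403 in cell 43, 308 in cell 41, 132 in cell 6 and 97.8 in cell 34. The carriers thus spanned more than an order of magnitude, and the lower carriers of each type lay far from the higher ones but still far above every other cell. A cutoff of 25 CPM gave the same 9 and 7 carriers, and one of 100 CPM gave 7 and 6.

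**Figure D1:**
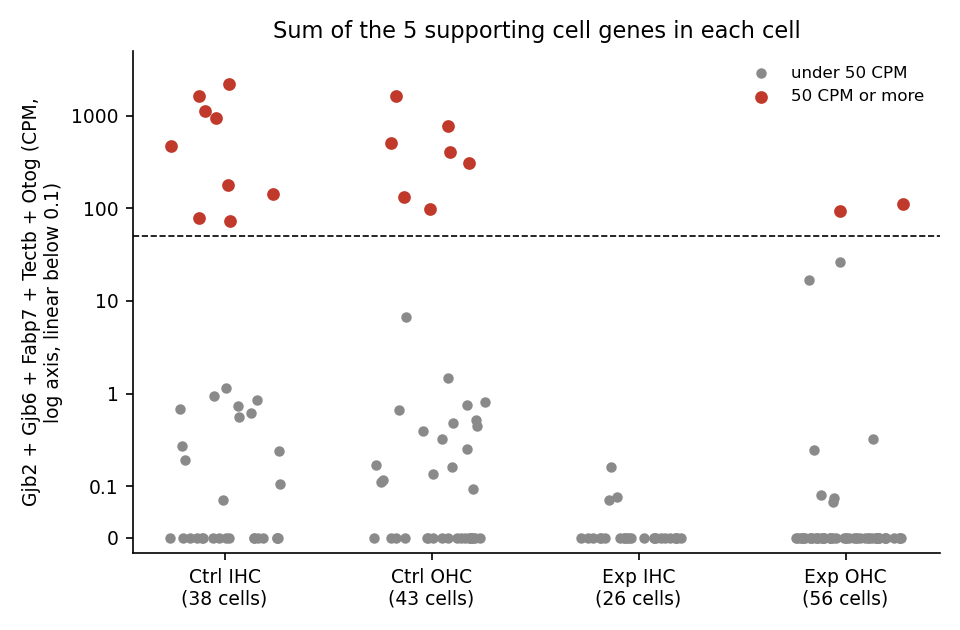
Sum of Gjb2, Gjb6, Fabp7, Tectb and Otog in each of the 163 cells (CPM; log axis, linear below 0.1), by genotype and cell type, with the 50 CPM cutoff dashed. The 16 control carriers (red) lie at 72.6 CPM or higher, and the other control cells (grey) at 6.70 CPM or lower.

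Mutant cells past the same cutoff were 2 of 82 (2.44%, 0.297 to 8.53%), against 19.8% (11.7 to 30.1%) of the control cells. No mutant IHC of 26 reached it, a count of 0 that leaves room for 11.5% by 3 cells of the total (exact 95% upper limit 13.2%), and their highest sum was 0.161 CPM. The 2 mutant OHCs of 56, cells 2 and 18, passed by Tectb alone, at 111 and 92.9 CPM, with Gjb2, Gjb6, Fabp7 and Otog at 0 counts. The genotypes were not compared by a test, since each is 1 sample per cell type and picking days or animals are not labelled. Both intervals treat cells as independent draws, so a gap between them is no test of genotype.

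The rule genes divided by cell type. Every one of the 9 IHC carriers had Fabp7 at 10 CPM or more (lowest 16.8, median 60.3, highest 533 CPM), and none of the 7 OHC carriers did (highest 0.660 CPM). Gjb2 reached 10 CPM in 7 IHC carriers, all of which also had Fabp7, with 354 CPM in cell 28, 269 in cell 13 and 239.9 in cell 37. In OHC carriers Gjb2 was at 16.3 CPM in cell 17 and 14.7 in cell 3 and at 1.52 CPM or less in the rest. Gjb6 was at 10 CPM or more in 5 IHC carriers (32.8 to 277 CPM) and in 1 OHC carrier, cell 33, at 65.0 CPM. The connexins and Fabp7 were therefore largely a property of IHC carriers, whereas the tectorial membrane genes ran through both types.

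Tectb, which encodes beta-tectorin, was at 10 CPM or more in 6 of 9 IHC carriers and 6 of 7 OHC carriers. Its level in IHC carriers was 1411 CPM in cell 27, 743 in cell 28, 695 in cell 6, 91.2 in cell 36, 59.7 in cell 37 and 23.0 in cell 9, and at most 0.297 CPM in the other 3. In OHC carriers it was 1272 CPM in cell 17, 753 in cell 3, 441 in cell 33, 222 in cell 43, 97.6 in cell 34, 55.9 in cell 41 and 3.86 in cell 6. Otog, which encodes otogelin, was at 10 CPM or more in 3 IHC carriers, at 231 CPM in cell 13, 29.8 in cell 28 and 10.3 in cell 27. In OHC carriers Otog was at 318 CPM in cell 17, 251 in cell 41, 181 in cell 43 and 126 in cell 6, and at 0.252 CPM or less in the remaining 3. Both genes together passed 10 CPM in 2 IHC carriers and 3 OHC carriers, so a carrier often had 1 of the matrix genes in plenty and the other near 0. Only cells 13, 27 and 28 of the IHC carriers had more than 10 CPM of all of Gjb2, Gjb6, Fabp7 and Otog, and cells 27 and 28 had all 5 genes. Per kilobase of exon, pooled levels in IHC carriers were 133 CPM for Fabp7, 88.2 for Tectb, 52.5 for Gjb2, 29.4 for Gjb6 and 2.51 for Otog. In OHC carriers they were 100.3 CPM per kilobase for Tectb and 12.5 for Otog, with Gjb6 at 3.63, Gjb2 at 1.78 and Fabp7 at 0.236.

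Genes of general hair cell identity stayed within 4-fold between carriers and other cells. None of the 16 hair cell identity genes passed 4-fold in either type, and their median log2 ratio of carriers over other cells was -0.05 in IHCs and -0.00 in OHCs, beside 0.03 and -0.02 over all genes at 1 CPM or more. List medians are over the members at that level. Myo7a, the unconventional myosin of the hair bundle, was at 179, 336 and 528 CPM (lowest, median, highest) in IHC carriers and at 1.14, 332 and 663 CPM in other IHCs. In OHC carriers Myo7a was at 241, 257 and 371 CPM, inside the range of the other OHCs. Slc17a8, whose product loads glutamate into IHC synaptic vesicles, was pooled at 259 CPM in IHC carriers and 249 CPM in the other IHCs. Slc26a5, the gene of the OHC motor prestin, was at 128 to 571 CPM in the 7 OHC carriers and at most 1.44 CPM in any IHC carrier. Slc17a8 was at 29.8 CPM in OHC carrier 17 and 21.3 in OHC carrier 6 and at most 0.884 CPM in the other 5, and 5 of the 36 other OHCs also passed 10 CPM of it. The summed level of the 16 identity genes had a median of 14994 CPM in IHC carriers and 18027 CPM in other IHCs. In OHCs the medians were 10382 and 10859 CPM, and ranges overlapped in both types. The lowest log2 ratio of a member was -0.92 in IHCs and -0.45 in OHCs, so smaller falls lie inside the 4-fold limit. By these genes the 16 carriers held the hair cell program of their labelled type, along with rule gene transcripts. Of 51 supporting cell list genes beyond the rule genes, IHC carriers held 6 to 18 at 10 CPM or more, and other IHCs 1 to 7. OHC carriers held 3 to 17 and other OHCs 2 to 7. IHC carriers 9, 22, 36 and 38 and OHC carriers 3, 33 and 34 lay inside the ranges of the other cells.

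Total counts, gene numbers and mitochondrial shares overlapped between the sides. Median total counts were 9.04e+06 in IHC carriers against 8.52e+06 in the other IHCs, and 9.00e+06 against 9.11e+06 in OHCs. Genes at 10 CPM or more numbered 7117 against 6744 in the median IHC and 6602 against 6376 in the median OHC. Mitochondrially encoded genes took 7.32% against 7.54% and 5.67% against 6.11% of counts. By the level of the pseudogene Gm15772, which splits the libraries of this series at 40 CPM, 6 IHC carriers were low and 3 high, against 17 and 12 other IHCs. Among OHCs, 4 carriers were low and 3 high, against 21 and 15. No doublet caller was run on these hand-picked cells. Whether a second cell, cell fragments or free RNA entered these libraries was not tested.

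In IHC carriers 295 of 10484 genes tested were 4-fold or more higher than in the other IHCs (2.81%) and 216 were lower (2.06%). A gene was tested when the mean of its carrier and other levels was 5 CPM or more. Many of these differences rest on 1 cell: without the highest cell of each side, gene by gene, 143 genes were higher and 437 lower. A stricter count asked for 10 CPM in 50% or more of the carriers and in at most 1 in 10 of the other cells. It held for 25 genes in IHC carriers (0.238% of those tested), 21 of them beyond the rule genes, while the reverse held for 2 genes (0.0191%). These 21 are the genes that came along, and single IHC carriers held between 6 (cell 9) and 19 (cell 13) of them at 10 CPM or more, against 0 to 2 in the other IHCs, a gap that the choice of the genes fixes.

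Tecta, which encodes alpha-tectorin, was at 262 CPM in cell 28, 170.3 in cell 13, 139.6 in cell 37, 137 in cell 6, 51.8 in cell 36 and 23.0 in cell 27, and the other 29 IHCs reached at most 0.247 CPM. Sparc, a collagen-binding matrix protein, was at 42.7 to 369 CPM in 6 carriers against at most 0.707 CPM in the others. The same 6 cells held both Tecta and Sparc. Igfbp3, an insulin-like growth factor binding protein, was pooled at 59.4 CPM against 0.128 CPM. Otol1, which encodes the collagen-like matrix protein otolin, passed 10 CPM in 2 carriers and had no count in any other IHC. The tetraspanin Cd9 was at 304 CPM in cell 13, 87.1 in cell 36, 83.0 in cell 27, 27.8 in cell 37 and 14.2 in cell 6, against at most 0.268 CPM. S100a10, the annexin A2 partner, reached 10 CPM in 5 carriers (highest 121 CPM) and at most 0.123 CPM elsewhere. Of the 16 tectorial and otolithic matrix genes, 7 were 4-fold higher and none lower, with a median log2 ratio of 8.43 over 13 members. The list holds the rule genes Tectb and Otog.

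**Figure D2:**
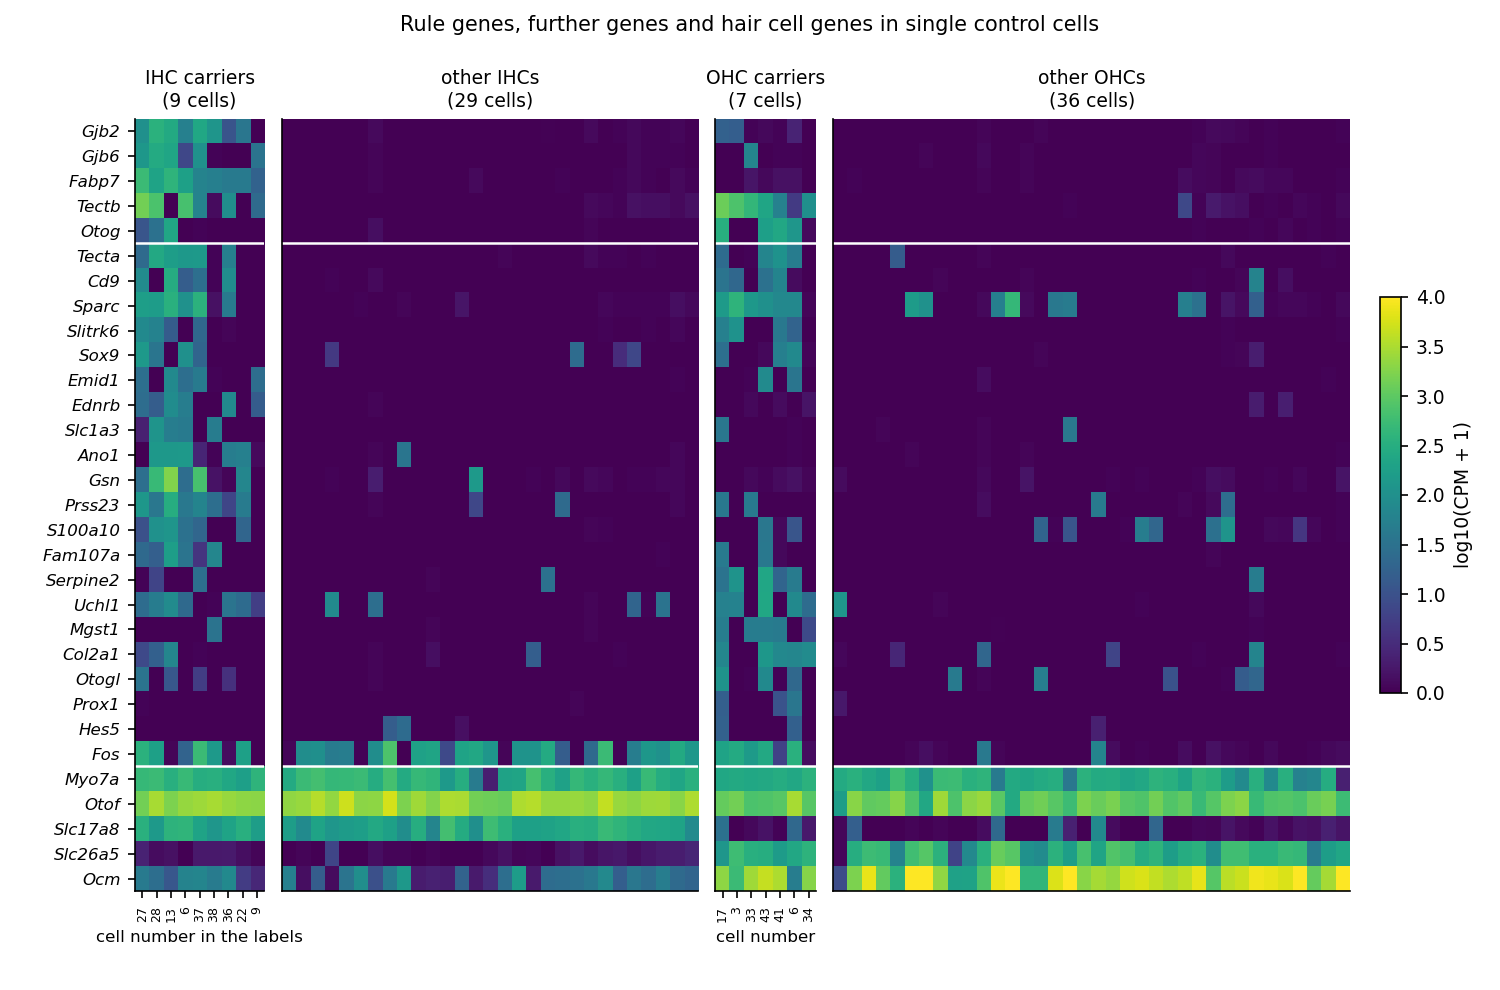
Levels as log10(CPM + 1) of the 5 rule genes (above the upper white line), further genes named in the text (between the lines) and 5 hair cell genes (below) in every control cell, with carriers ordered by falling sum and values over 4 drawn as 4. Further genes fill the carrier columns unevenly, while Myo7a and Otof run through carriers and other cells alike.

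Markers of several supporting cell types met in the same IHC carriers. For inner phalangeal and border cells, Slc1a3, the glutamate-aspartate transporter that clears glutamate around the IHC, was at 115 CPM in cell 28, 48.5 in cell 13, 46.9 in cell 38 and 44.0 in cell 6. It had no count in any of the 29 other IHCs, which puts the pooled 27.5 CPM at least 2441-fold higher against a floor of 3 counts over those cells. With Fabp7, which is a rule gene, 2 of 6 genes of that list were called. Matn4 of the same list had 0 counts in all 9 carriers. For the pillar list, 3 of 7 genes were higher. Ednrb, the endothelin B receptor, was at 13.8 to 87.7 CPM in 6 carriers. Emid1, an EMI domain protein, was at 25.5 to 77.3 CPM in 5, and the small heat shock protein Cryab was at 71.5 CPM in cell 13 and 56.2 in cell 27. Other IHCs held at most 0.134 CPM of Ednrb and 0.0850 CPM of Emid1. Fgfr3, the receptor that marks pillar and Deiters cells, reached only 0.124 CPM in any IHC carrier, and Npy had no count.

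The greater epithelial ridge list had 1 called gene of 7, and 4 of its members reached 10 CPM in some IHC carrier. Ano1, the calcium-activated chloride channel of the ridge's spontaneous activity, was at 142 CPM in cell 6, 136 in cell 13, 133 in cell 28, 55.1 in cell 22 and 48.1 in cell 36. A single other IHC held 34.4 CPM, so the 5 carriers lay above all others. Crabp1 and Epyc of that list had no count in any control IHC, whereas Otoa was at 73.0 CPM in cell 37, Dcn at 42.1 CPM in cell 36 and Slc6a14 at 32.0 CPM in cell 27. Prss23, a secreted serine protease placed in the Deiters list, reached 10 CPM in 7 of 9 carriers (highest 307 CPM in cell 13) and was the list's only called gene of 10. In all, 4 of the 10 Deiters genes reached 10 CPM in some IHC carrier and 6 in none. Lgr5 was at 40.5 CPM in cell 13 and 30.4 in cell 27. Rbp7 was at 24.2 CPM in cell 13 and Pdzk1ip1 at 20.7 CPM in cell 37. The Deiters list's median log2 ratio in IHCs was 3.05 over 4 members. Prox1 and Hes5 of that list were at or near 0 in every IHC carrier, with at most 0.111 CPM of Prox1. Nupr1, the only called gene of 8 in the Hensen, Claudius and outer sulcus list, reached 10 CPM in cells 13, 27, 28 and 37, while Fst and Bmp4 had no count. Beyond the rule genes, called genes were 3 in the pillar list and 1 in each of the inner phalangeal and border, Deiters, Hensen, Claudius and outer sulcus, and greater epithelial ridge lists, and no list of a single supporting cell type was held whole by any carrier. Many list genes were under the 5 CPM needed for a call. In IHCs that level was met by 4 of 7 pillar genes, 2 of 10 Deiters genes and 1 of 7 ridge genes. The Hensen, Claudius and outer sulcus list had 3 of 8. The inner phalangeal and border list had 3 of 6, with Fabp7 among them. The numbers of called genes therefore do not rank the lists. Over all genes tested in IHCs, 2.81% were higher. Cell 13 held Slc1a3, Ednrb, Emid1, Cryab, Ano1, Prss23 and Nupr1 at once.

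Transcription factors and the Notch ligand of supporting cells came with them. Sox2, the progenitor and supporting cell factor, was at 65.5 CPM in cell 27, 59.8 in cell 37, 49.6 in cell 6, 47.5 in cell 28, 39.5 in cell 13 and 16.3 in cell 36. Other IHCs ranged from 0 to 41.8 CPM, so 4 carriers lay above all of them. Sox9, an early otic factor kept by supporting cells, was at 147, 103, 35.1 and 18.7 CPM in cells 27, 6, 28 and 37, and 1 other IHC held 25.1 CPM. Jag1, the ligand shown by supporting cells to their neighbours, was at 10 CPM or more in 7 carriers and 3 other IHCs (pooled 28.9 against 3.76 CPM; log2 ratio 2.94, 2.83 to 3.05). Of 16 pan supporting cell genes, 4 were higher (Sox2, Sox9, Jag1 and Tecta) and none lower, with a median log2 ratio of 2.94 over 9 members. The summed level of these 16 was 88.3 to 699 CPM in IHC carriers and 0.211 to 219 CPM in other IHCs. Mutant IHCs, none of which passed the rule, held 2.30 to 806 CPM. Jag1 was the only called gene of 17 in the Notch pathway. Gja1, connexin 43, had no count in any control hair cell.

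Gsn, which encodes the actin-severing protein gelsolin, differed most between IHC and OHC carriers. It was at 1744 CPM in cell 13, 681 in cell 37, 494 in cell 28, 68.4 in cell 22, 28.1 in cell 27 and 26.0 in cell 6, against a highest value of 139.8 CPM in the other IHCs, and cell 13 gave 54.0% of the carriers' counts. Across all 38 IHCs its level had a Spearman rho of 0.80 with the rule sum, followed by Prss23 at 0.77, Sh3bgrl at 0.71 and Uchl1 at 0.69. These rank measures share the libraries that chose the carriers and describe only which genes were most alike in pattern. No gene of the Schwann and satellite glia, mesenchyme, stria, erythroid, immune or endothelial lists was called in IHC carriers, with Foxd3, Pou3f4, Kcnq1 and Cldn5 at 0 counts. Few of these genes had the 5 CPM needed for a call: 2 of 11 for glia, 1 of 11 for mesenchyme, 1 of 11 for immune cells and none for the other 3 lists. In all, 5 mesenchyme genes reached 10 CPM in some carrier, and Pdgfra was the 1 of them that had the level for a call. Others were the matrix genes Emilin2 at 80.7 CPM in cell 37, Dcn and Lum. Lum was at 29.7 CPM in cell 27 with no count in other IHCs. The mesenchyme list's median log2 ratio was 8.17 over 5 members, and the part of such cells in the IHC carriers was not tested.

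**Figure D3:**
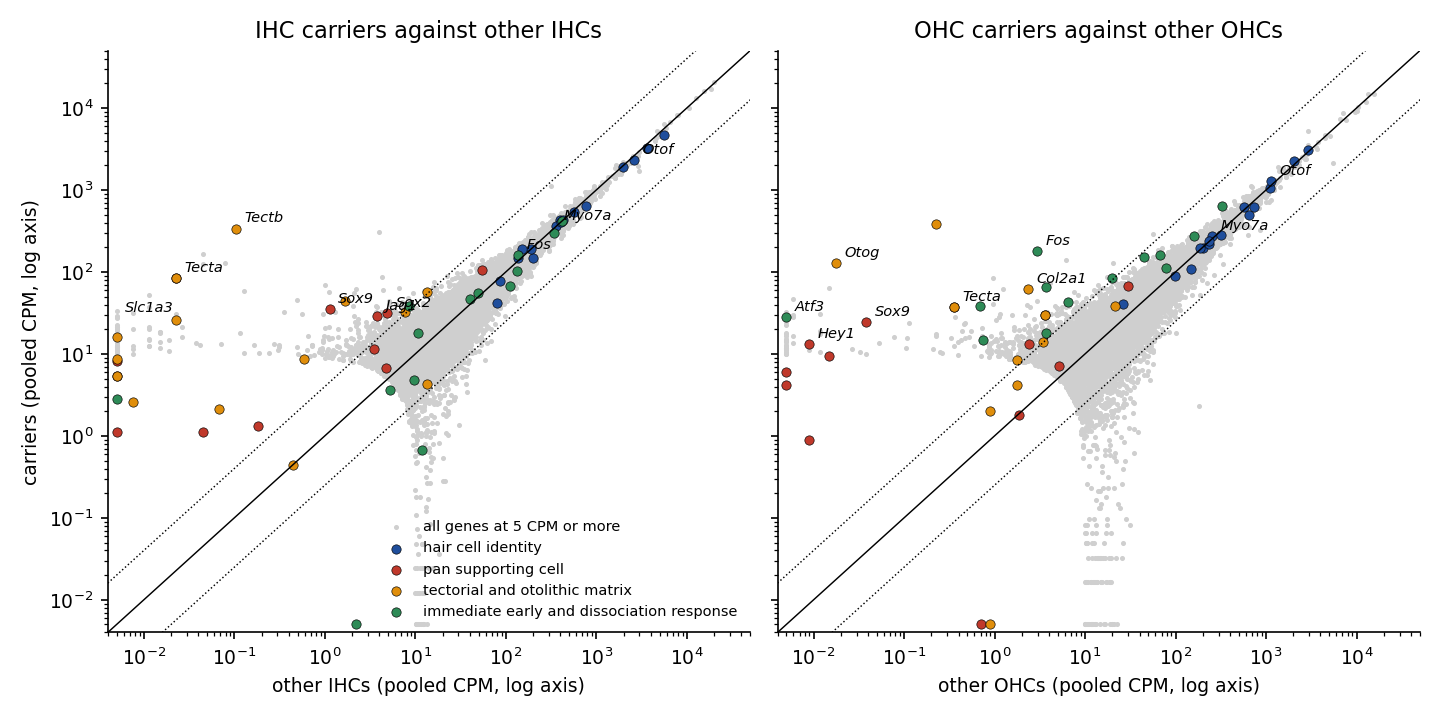
Pooled CPM in carriers (y) against other cells (x) on log axes for all genes tested (grey) and 4 gene lists, with levels under 0.005 CPM drawn at 0.005, the line of equality solid and 4-fold dotted. Genes that are in 2 lists take the matrix colour. Hair cell identity genes lie near the line in both cell types, and Tecta, Sox9, Tectb and Otog lie far above it. In OHCs the other rule genes, Gjb2, Gjb6 and Fabp7, were under the level for testing and are not drawn.

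In OHC carriers 325 of 10506 genes tested were 4-fold or more higher than in the other OHCs (3.09%) and 406 lower (3.86%). Without the highest cell of each side, 112 were higher and 851 lower. The stricter count held for 27 genes (0.257%), 25 of them beyond the rule genes, and the reverse for 5 (0.0476%). Single OHC carriers held 7 (cell 33) to 22 (cell 43) of the 25 at 10 CPM or more, against 0 to 6 in the other OHCs, again fixed by the choice.

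Tectorial membrane genes again came along. Tecta was at 109.7 CPM in cell 41, 65.7 in cell 43, 46.5 in cell 6 and 23.8 in cell 17, the 4 cells that also held Otog, and 1 other OHC held 13.4 CPM. Otogl, the otogelin-like protein, was at 113 CPM in cell 17, 77.6 in cell 43 and 21.8 in cell 6, and 4 other OHCs also passed 10 CPM of it, up to 50.1 CPM. Col2a1, the chain of type II collagen, was at 129 CPM in cell 43, 85.5 in cell 34, 73.3 in cell 41, 68.2 in cell 6 and 66.9 in cell 17. The highest other OHC held 62.9 CPM. Of the 16 matrix genes, 7 were higher and none lower, with a median log2 ratio of 2.66 over 10 members. The rule genes Tectb and Otog, which chose the carriers, are 2 of these 7 and enter the median. Over all genes tested in OHCs, 3.09% were higher. Slitrk6, a transmembrane adhesion protein, was at 109, 54.1, 39.5 and 18.1 CPM in cells 3, 17, 41 and 6, and at most 0.108 CPM in the other OHCs. Serpine2, a secreted protease inhibitor, and Mgst1, a glutathione transferase, reached 10 CPM in 5 and 4 carriers and in 1 and none of the other 36.

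Among factors, Sox9 was at 77.1 CPM in cell 6, 52.8 in cell 41 and 28.1 in cell 17, and the other OHCs reached at most 1.11 CPM. Prox1, the homeobox factor of pillar and Deiters cells, was at 35.9 CPM in cell 6, 15.0 in cell 17 and 9.59 in cell 41, with at most 0.779 CPM in the other OHCs. Hes5, a Notch effector of Deiters cells, was at 16.7 CPM in cell 17 and 15.7 in cell 6, with at most 1.21 CPM elsewhere. Hey1, another Notch effector, was at 53.8 CPM in cell 41 and 35.2 in cell 17. Cells 6, 17 and 41 thus shared Sox9, Prox1, Tecta and Otog, and each held Hes5 or Hey1. Of the pan supporting cell genes 5 of 16 were higher and none lower (median log2 ratio 6.72 over 11 members), and of the Notch pathway 2 of 17, Jag1 and Hey1. Summed levels of the pan supporting list overlapped, at 62.0 to 321 CPM in OHC carriers and 0 to 255 CPM in other OHCs. Sox2 was not called in OHCs, at 44.4 CPM in cell 3 and 11.1 in cell 6 and up to 121 CPM in the other OHCs.

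Few genes of the single supporting cell type lists were called in OHC carriers, and few had the 5 CPM needed for a call. That level was met by 3 of 10 Deiters genes, 3 of 7 pillar genes and none of the 6 inner phalangeal and border genes. Yet 7 of the 10 Deiters genes reached 10 CPM in some OHC carrier and 3 in none. The Deiters list's median log2 ratio was 7.08 over 7 members. Cell 6 held Pdzk1ip1 at 48.9 CPM, and cell 17 held Bace2 at 50.4. The list's summed level was 0 to 171 CPM in OHC carriers and 0 to 166 CPM in other OHCs. Prss23 alone was called in the Deiters list, Emid1 alone in the pillar list and Gata2 alone in the Hensen, Claudius and outer sulcus list, with Gata2 at 112 CPM in cell 33 and at 0 in the other 6. Fgfr3 was pooled at 27.4 CPM in carriers and 21.3 CPM in other OHCs. Slc1a3 passed 10 CPM in cell 17 alone, and no gene of the inner phalangeal and border list was called. Ednrb, Ano1 and Gsn, leading genes of the IHC carriers, reached at most 0.631, 0.101 and 0.507 CPM in any OHC carrier. Cells 3, 33 and 34 passed the rule mainly through Tectb, with Otog at 0.252 CPM or less. For glia and stria, Foxd3 and Kcnq1 had no count in OHC carriers, and the myelin gene Mbp was at 45.3 CPM in cell 17 and under 1 CPM in the other 6. Uchl1, the neuronal ubiquitin hydrolase, was the only called gene of 11 in the neuron list and is also among the 25.

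Some immediate early genes were higher in OHC carriers, unevenly over the cells. Fos was at 350.2 CPM in cell 6, 277 in cell 3, 256 in cell 43, 209.5 in cell 17 and 151 in cell 33, then 4.90 in cell 41 and 0.379 in cell 34. In the other 36 OHCs its median was 0 and its highest value 63.1 CPM. Of the 15 immediate early and dissociation response genes, 8 were higher in OHC carriers and none lower, with a median log2 ratio of 2.27. They were Fos, Fosb, Junb, Atf3, Dusp1, Hspa1a, Hspa1b and Zfp36. Over all genes tested in OHCs, 3.09% were higher. Atf3 was at 229 CPM in cell 3 and at most 1.01 CPM in the other carriers. Dusp1 was at 181 and 262 CPM in cells 3 and 6 and at most 12.5 CPM in the rest. Hspa1a was at 88.6 and 41.9 CPM in cells 3 and 17 and at most 8.75 CPM in the rest. Junb was at 36.4 to 218 CPM in every carrier, and Zfp36 reached 10 CPM in 5. The summed level of the list was 505 to 3932 CPM in OHC carriers and 53.4 to 4537 CPM in the other OHCs, so the sums overlapped. In IHCs 1 was higher (Dusp1) and 1 lower (Hspa1a), and Fos was pooled at 161 CPM in carriers and 137 CPM in other IHCs. Their part in the supporting cell transcripts was not tested.

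**Figure D4:**
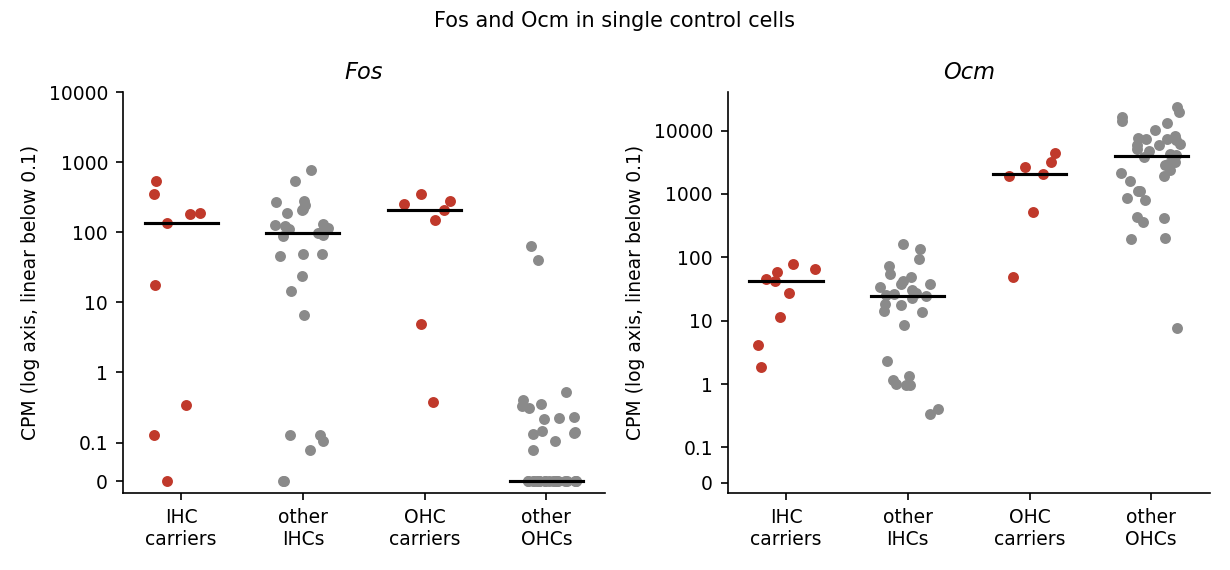
Fos and Ocm in every control cell (CPM; log axis, linear below 0.1), with a bar at each median. For Fos, 5 of 7 OHC carriers lie at 151 to 350.2 CPM, above all other OHCs, and IHC carriers lie among the other IHCs. For Ocm, carriers lie inside the range of the other cells in both types.

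OHC genes stayed within 4-fold in OHC carriers with 1 exception among the 12 tested. Ppp1r17, a phosphatase inhibitor, had no count in the 7 carriers and was at 10 CPM or more in 13 of 36 other OHCs. Ocm, the calcium buffer oncomodulin, was at 4473 CPM in cell 43, 3162 in cell 41, 2689 in cell 33, 2081 in cell 17, 1903 in cell 34, 528 in cell 3 and 49.2 in cell 6. The other OHCs had a median of 4005 CPM and ranged from 7.64 to 23264 CPM, and the pooled log2 ratio was -1.34 (-1.35 to -1.33). Cells 3 and 6, lowest in Ocm, had the highest Fos of the OHC carriers.

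Among genes lower in carriers, the 6 lowest in IHCs by ratio without the highest cell of each side were Snx11, Lama4, Gpr19, Bloc1s5, Wfs1 and Ppm1m. Wfs1, the endoplasmic reticulum protein of Wolfram syndrome, was pooled at 3.46 CPM in carriers, of which 1 of 9 passed 10 CPM, against 37.4 CPM and 16 of 29 other IHCs. In OHCs they were Nol12, Edc3, Ano8, Fbxw17, Inafm1 and Cdk20. Edc3, a decapping enhancer, was pooled at 5.55 CPM (1 of 7 carriers) against 48.1 CPM (19 of 36). None of these 12 is a member of a hair cell list, and each was held by part of the other cells only.

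The 2 kinds of carrier shared part of their genes. Beyond the rule genes 290 genes were higher in IHC carriers and 323 in OHC carriers, and 38 were in both (13.1% and 11.8% of each list). Only 153 of the 290 and 152 of the 323 were tested in both types, and the 38 are 24.8% and 25.0% of these. Of all genes tested in both types, 1.58% were higher in OHC carriers. The 2 comparisons use different cells, though the same genes chose the carriers in both. The shared genes included Tecta, Sox9, Jag1, Sparc, Cd9, Slitrk6, Emid1, Fam107a, Prss23, Igfbp3, Col9a3, Col11a2, Cnn3, Cdc42ep4 and Stmn1. Stmn1, the microtubule regulator stathmin, was pooled at 63.1 against 6.69 CPM in IHCs and 73.5 against 4.13 CPM in OHCs. Of genes lower in carriers, 18 were shared (8.33% and 4.43%), or 10.7% and 5.49% of those tested in both types. Among all genes tested in both types, 3.42% were lower in OHC carriers.

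Counting the 21 genes of IHC carriers in OHCs gave a readout in cells that had not chosen those genes. OHC carriers held 2 to 13 of the 21 at 10 CPM or more (median 6.00) and the other OHCs 0 to 6 (median 1.00), and 3 of 7 carriers lay above every other OHC. The 25 genes of OHC carriers numbered 3 to 13 in IHC carriers (median 6.00) and 0 to 5 in the other IHCs (median 3.00), with 6 of 9 carriers above every other IHC. Carriers of each type therefore tended to hold the other type's genes, with overlap at the low end.

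**Figure D5:**
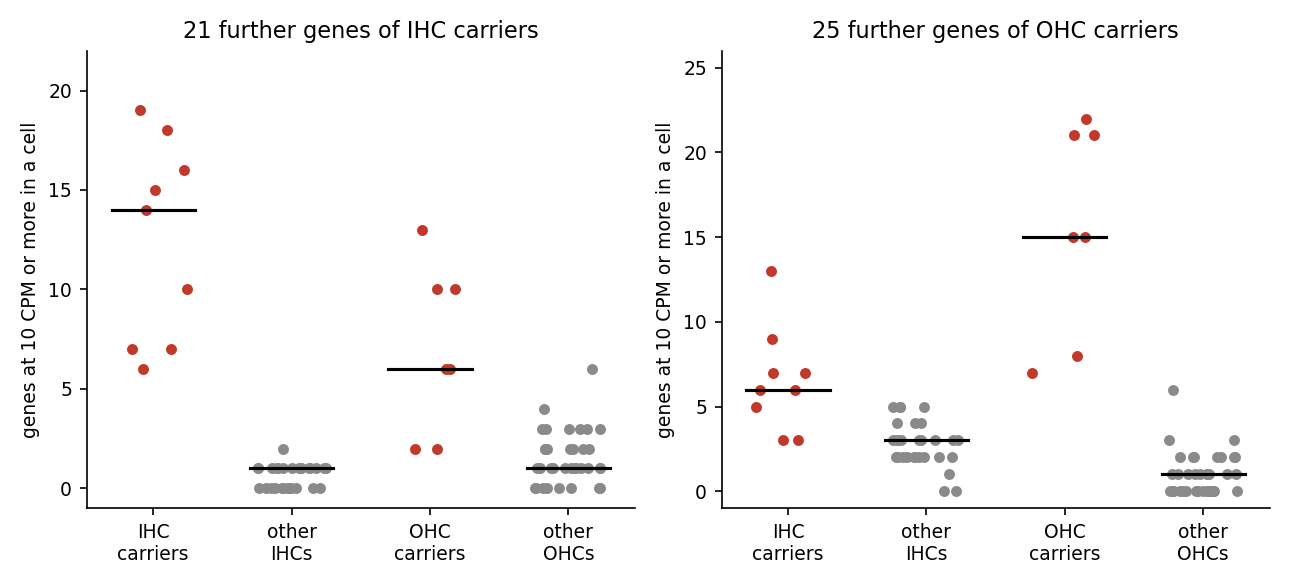
Number of genes at 10 CPM or more in each control cell, among the 21 further genes found in IHC carriers (left) and the 25 found in OHC carriers (right), with a bar at each median. Within the type that chose the genes the gap is fixed by that choice. In the type that did not choose the genes, medians were 6.00 in carriers of either type against 1.00 in other OHCs and 3.00 in other IHCs.

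Per 1000 CPM of excess rule gene level, the 2 kinds of carrier differed in several genes. Gsn was in excess by 413 CPM in IHC and 0.221 CPM in OHC carriers, and Ano1 by 75.6 and 0.00862 CPM. Ccng2, an unconventional cyclin, differed by more than Ano1, at 47.9 and -107 CPM, since it was lower in OHC carriers than in other OHCs. Prss23 and Fstl1, a secreted follistatin-like protein, were in excess by 92.3 and 81.7 CPM in IHC carriers against 18.1 and 7.68 CPM. In the other direction, Fos was at 33.0 CPM in IHC and 335 CPM in OHC carriers, Serpine2 at 2.94 and 115 CPM, and Col2a1 at 11.0 and 112 CPM. Nt5dc2 and Uggt2 were at -74.6 and -18.4 CPM in IHC and 74.4 and 93.7 CPM in OHC carriers. Tm4sf1, a tetraspanin-like surface protein, was at 0.0509 and 161 CPM, and Cep41, a centrosomal protein, at 12.6 and 252 CPM. Cep41 overlaps the antisense gene Gm13782, and whether the counting used strand is not given in the sources used here, so reads of these genes cannot be told apart. Among rule genes Fabp7 was at 226 and 0.453 CPM, Gjb2 at 172 and 8.08 CPM, Tectb at 459 and 727 CPM and Otog at 35.4 and 246 CPM. These differences were not tested.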

How the data were processed

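Raw read counts per gene were deposited by the authors as 1 table of 163 single-cell libraries. Reads were handled with HISAT2 2.2.1, SAMtools and featureCounts 2.0.1 against mm10, per the submitters' processing notes. The annotation release, strand setting and read filters are not given in the sources used here. Cells were picked by hand and their cDNA made full-length from single cells, per the labels. The reads carry no molecular identifiers, so intervals of ratios cover counting error only. Totals ran from 5.47e+06 to 1.81e+07 counts per cell and no library was identical to another. Gene symbols, positions and exon lengths came from GENCODE M21, which matched 99.5% of 55291 gene IDs.

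Each count was divided by the cell's total and scaled to 1000000 (CPM). Carriers and other cells were compared by summed counts over summed totals, with an exact binomial 95% interval on the ratio, and a gene was called at 4-fold with a mean level of 5 CPM. A sum of 0 was set to a floor of 3 counts. The calculation was tested on simulated data. No p-value was computed, because a group is 1 sample. Cells were also split at 1 CPM by Xist and Y-linked genes. Python 3.11.15 and, for TMM factors, edgeR 4.0.16 were used.

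The cells, their rule and the 24 gene lists were chosen with earlier results of these data known, and the lists come from general knowledge. Named genes were the rule genes, the 12 highest and 6 lowest by ratio in each type without the highest cell of each side, the 12 highest in both types, up to 4 members and the defining genes of each list, the 8 that differed most each way between types, and the 5 most alike in pattern. Genes of the same lists and of the stricter count named beyond these were chosen after their values were seen. Alternatives covered the cutoff, the scaling, the level filter, the highest cells, equal cell weights and the sets by Gm15772 and by sex.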

Additional observations from a re-analysis of the deposited data

Results flagged for a closer look

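In 30 summed list levels checked over the carriers of each type, 3 single cells stood apart from the rest of their group by Dixon's criterion, which chance meets in about 1 of 20 groups. IHC carrier 13 had a summed pillar list level of 249 CPM, with the next carrier at 110.0 CPM. The same cell had a summed Deiters list level of 380.1 CPM, most of it Prss23, with the next carrier at 168 CPM. OHC carrier 17 had a summed tectorial and otolithic matrix level of 1985 CPM, most of it the rule gene Tectb, with the next carrier at 801 CPM.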

How the results depend on the processing

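The number of carriers stayed within 1.5 times of 9 and 7 under every cutoff, scaling and left-out rule gene tried, the lowest being 5 OHCs without Tectb. Counts of genes past 4-fold moved with the level filter and with the number of cells. For IHCs, 295 higher and 216 lower became 2117 and 3844 with no level filter, 42 and 17 at 20 CPM, 143 and 437 without the highest cell of each side, 506 and 381 in cells low in Gm15772, 655 and 1017 in cells high in it, 461 and 379 in cells with Y-linked transcripts and 770 and 1012 in cells with Xist. For OHCs, 325 and 406 became 1808 and 4562, 52 and 39, 112 and 851, 579 and 1030, 659 and 865 and, in cells with Xist, which hold 1 carrier, 907 and 2763. Of 456 alternative values of single named genes 455 kept their direction and 443 stayed past 4-fold; the exception was Jag1 in OHCs, at -2.27 among cells with Xist. Of 306 list medians 1 turned, the Deiters list in IHCs, at -0.06 among cells high in Gm15772, and 3 more left the interval over members. No paired analysis was possible because no result comes from a test and replicate numbers only name cells. With 9 and 7 carriers, a gene found in 1 or 2 cells cannot be told from the spread between cells.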

Other observations

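Below the cutoff, rule gene counts were unevenly spread over cell numbers, a pattern noticed after the values were seen. Among control cells numbered 28 or higher in the labels, 7 of 7 other IHCs and 11 of 12 other OHCs had at least 1 count of a rule gene, with sums of at most 1.16 and 6.70 CPM. Among those numbered under 28, 5 of 22 other IHCs and 6 of 24 other OHCs did. Carriers were in both ranges, 4 of 9 IHC and 4 of 7 OHC carriers being numbered 28 or higher. Whether the numbers follow a plate, day or animal is not given in the sources used here, and the source of these counts was not tested.

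The 21 genes of IHC carriers numbered 0 to 3 at 10 CPM or more in single mutant IHCs (median 1.00) and 0 to 6 in mutant OHCs (median 2.00). The 25 genes of OHC carriers numbered 2 to 10 in mutant IHCs (median 5.00) and 1 to 9 in mutant OHCs (median 3.50), where all but 2 cells lay under the rule's cutoff.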
